A study of Mus musculus with 10 samples.

Results

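The Serpina1 and Serpina3 clusters on mouse chromosome 12 encode secreted inhibitors of serine proteases, and 8 of their genes were followed in the livers of tumour-bearing mice with and without cachexia. The 8 genes (Serpina1a, Serpina1b, Serpina1c, Serpina1d, Serpina1e, Serpina3k, Serpina3m and Serpina3n) were chosen by name from the 43629 genes of the count table, and all 8 passed the filter on low counts. Each was examined as a separate gene and as part of the sum of its cluster.

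The livers came from 5 NCACS mice (mice 11 to 15, non-cachectic) and 5 CACS mice (mice 16 to 20, cachectic), all labelled male. Every mouse was of an inducible lung tumour model with floxed Lkb1 alleles on a background backcrossed to FVB, and every mouse had received intranasal adenovirus carrying Cre under the CMV promoter as an adult to induce lung tumours, so that the groups shared genotype and virus. Weight loss was between 3 and 14% in NCACS mice (weight change of -8 ± 4.64%, SD, n = 5) and between 29 and 33% in CACS mice (-30.6 ± 1.82%, SD, n = 5). The groups were therefore defined by weight loss, no tumour-free mice were included, the CMV promoter does not restrict Cre to 1 cell type, and tumour burden was not part of the table. Total counts ranged from 31945328 to 38306888 per NCACS liver and from 31459179 to 40746178 per CACS liver. Levels are given as CPM (read counts scaled to a common library size, which was first adjusted by TMM), and differences as log2 fold changes of CACS against NCACS livers from edgeR's quasi-likelihood test, with p-values adjusted over the 14143 genes tested and a threshold of 0.05.

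Serpins trap their target protease by offering an exposed reactive centre loop as bait. Cleavage of the loop makes the serpin snap into a new shape and carry the protease with it, and the residue cut in the loop largely sets which protease is caught. Alpha-1-antitrypsin, a product of hepatocytes and one of the most abundant plasma proteins, protects the lung from neutrophil elastase. People have 1 gene for it, whereas mice have several nearly identical Serpina1 copies whose number differs between inbred strains, and the human antichymotrypsin gene likewise corresponds to a whole family of Serpina3 genes in mice. Several of these genes belong to the acute-phase response, in which interleukin-6 acting through STAT3 raises the output of plasma proteins from the liver.

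The loop is where the copies differ most, so its coding segment is shown for each gene. The Serpina1 segments below are from GENCODE transcripts on GRCm38, and each lies within 1 exon. Capitals mark the 16 codons between the hinge of the loop and the conserved end of the segment.

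Serpina1a (chr12:103853750-103853836, minus strand): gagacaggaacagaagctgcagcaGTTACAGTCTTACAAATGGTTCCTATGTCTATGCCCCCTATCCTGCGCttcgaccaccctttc
Serpina1b (chr12:103728317-103728403, minus strand): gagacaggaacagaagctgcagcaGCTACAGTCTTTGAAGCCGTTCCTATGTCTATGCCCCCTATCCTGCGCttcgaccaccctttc
Serpina1c (chr12:103895087-103895173, minus strand): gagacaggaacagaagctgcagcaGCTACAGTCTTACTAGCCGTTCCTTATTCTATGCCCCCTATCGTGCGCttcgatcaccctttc
Serpina1d (chr12:103763755-103763841, minus strand): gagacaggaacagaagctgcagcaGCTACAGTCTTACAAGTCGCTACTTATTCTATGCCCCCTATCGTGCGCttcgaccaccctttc
Serpina1e (chr12:103947093-103947179, minus strand): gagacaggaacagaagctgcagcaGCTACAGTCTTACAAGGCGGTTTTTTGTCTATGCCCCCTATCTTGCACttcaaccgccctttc

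At the position where the protease cuts, Serpina1a and Serpina1b have the codon ATG, Serpina1c and Serpina1d have TAT, and Serpina1e has TTG. Serpina1a and Serpina1b are the copies best known as elastase inhibitors. Over the whole coding sequence the 10 pairs of Serpina1 genes were 96.3 to 98.5% identical. In the capitalised stretch identity was 79.2 to 91.7%, against 96.8 to 99.2% in the remainder, and the stretch was less alike than the remainder in 10 of 10 pairs.

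The corresponding Serpina3 segments, with the same use of capitals, show a stretch that varies in length as well. It covers 17 codons in Serpina3k and 19 in Serpina3m and Serpina3n.

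Serpina3k (chr12:104345263-104345352, plus strand): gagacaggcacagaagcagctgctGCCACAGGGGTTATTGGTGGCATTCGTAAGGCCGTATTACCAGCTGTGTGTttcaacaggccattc
Serpina3m (chr12:104393763-104393858, plus strand): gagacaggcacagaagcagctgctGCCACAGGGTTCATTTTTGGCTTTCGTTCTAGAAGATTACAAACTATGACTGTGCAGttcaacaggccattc
Serpina3n (chr12:104413442-104413537, plus strand): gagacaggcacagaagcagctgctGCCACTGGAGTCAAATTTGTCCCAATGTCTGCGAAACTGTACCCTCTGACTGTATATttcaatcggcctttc

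Serpina3 genes were 82.7 to 91.0% identical over the coding sequence. Identity was 54.4 to 57.9% in the loop stretch and 84.0 to 92.5% elsewhere, so that the loop was again the less alike part in 3 of 3 pairs. Genes of different clusters were 56.2 to 58.8% identical.

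This likeness bears on the counts, because a read from a shared stretch cannot be assigned to 1 copy. Reads were 100 bases long, and the share of 100-base stretches of a gene's transcripts found in no other gene was 30.7% for Serpina1c, 57.2% for Serpina1a, 70.7% for Serpina1d, 85.2% for Serpina1b and 85.6% for Serpina1e. It was 95.1% for Serpina3k, 93.9% for Serpina3m and 99.8% for Serpina3n. How reads that fit several copies were counted is not given in the sources used here, so that the counts of single Serpina1 copies, and Serpina1c above all, are uncertain in a way that those of Serpina3n are not. The reference genome is that of C57BL/6J, and reads of mice backcrossed to FVB were assigned to its copies.

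**Figure D1:**
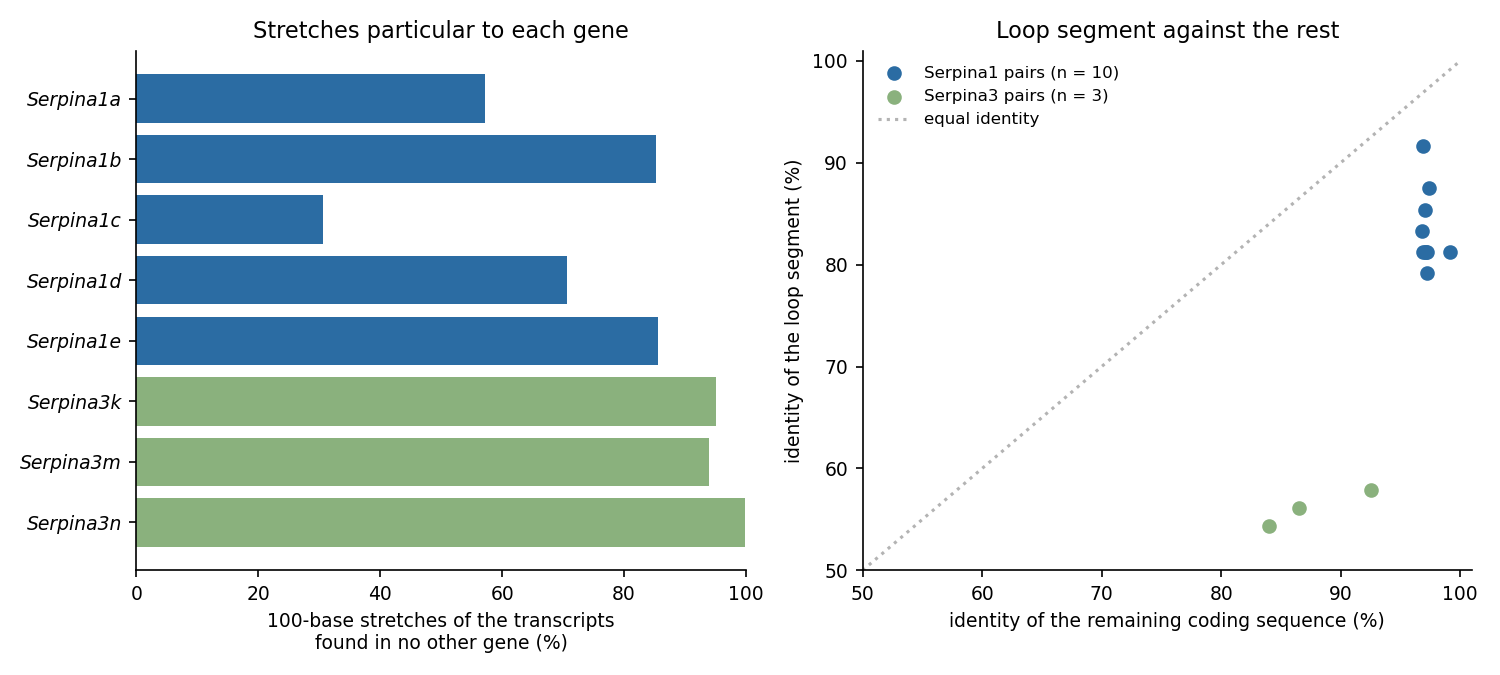
Left, share of 100-base stretches of each gene's transcripts that occur in no other gene, in percent. Right, for each pair of genes within a cluster, identity of the loop segment against identity of the remaining coding sequence, both in percent, with a dotted line of equal identity. Serpina1c has the fewest stretches of its own (30.7%) and Serpina3n the most (99.8%), and every pair lies below the line.

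The genes lie within 686 kb of chromosome 12 (GRCm38, chr12:103728156-104414329). The 5 Serpina1 genes are on the minus strand, from Serpina1b (chr12:103728156-103830373) to Serpina1e (chr12:103946931-103958975), and the annotated span of Serpina1b encloses Serpina1d (chr12:103763594-103773592). The 3 Serpina3 genes are on the plus strand. Serpina3k (chr12:104338486-104346144) and Serpina3m (chr12:104338486-104394257) share an annotated start and 60 bases of exon, whereas Serpina3n (chr12:104406729-104414329) stands apart. Of the 35 genes of the count table within this span, the 8 genes included, 21 were tested. Among these 0 passed the threshold, against 3.8% of all genes tested, and with so few genes this says little about the locus.

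None of the 8 genes passed the threshold between CACS and NCACS livers in edgeR's test (0 of 8, against 3.8% of all genes tested, of which 1.89% rose and 1.92% fell). None had an unadjusted p-value under 0.05, which 21.6% of all genes tested had, and DESeq2, which called 5.57% of the genes it tested, and limma-voom called 0 of the 8 as well. The log2 fold change was above 0 for 6 genes and below 0 for 2, with a median of 0.10, compared with a median of -0.0053 over all genes tested. The CPM of the groups overlapped for each of the 8 genes, and 7.07% of all genes tested had groups that did not overlap. The data for single livers nevertheless varied strongly for 3 of the genes, Serpina1e, Serpina1d and Serpina3n.

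**Figure D2:**
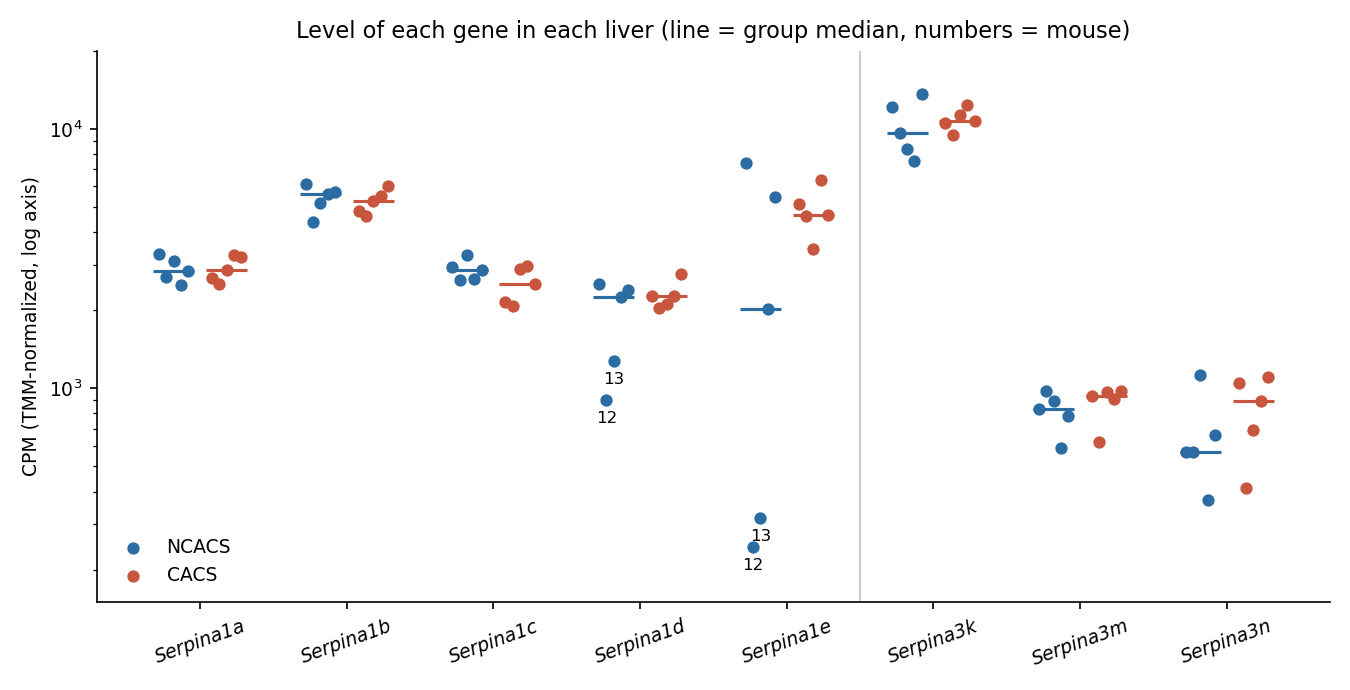
CPM of each gene in each liver on a log axis, with NCACS livers in blue, CACS livers in red and a line at the median of each group of 5. The groups overlap for every gene, and Serpina1e and Serpina1d were lowest in the livers of NCACS mice 12 and 13, which are numbered.

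Serpina1a and Serpina1b, the copies known for elastase inhibition, had the narrowest ranges of the 8 genes. Serpina1a was at 3305, 2697, 3106, 2507 and 2837 CPM in NCACS mice 11 to 15 and at 2668, 2515, 2869, 3260 and 3220 CPM in CACS mice 16 to 20. The 10 livers thus lay within a 1.32-fold range, with high and low livers in both groups. The log2 fold change was 0.0079 (SE 0.135, adjusted p = 0.980 in edgeR's test), and its 95% interval ran from -0.29 to 0.30.

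Serpina1b, which took the largest mean share of the Serpina1 counts, was at 6136, 4372, 5180, 5626 and 5719 CPM in NCACS livers and at 4835, 4602, 5283, 5501 and 6017 CPM in CACS livers. The lowest and the highest of the 10 livers were both NCACS livers. Its log2 fold change was -0.043 (SE 0.144, adjusted p = 0.896 in edgeR's test, 95% interval from -0.36 to 0.27). As folds, the intervals ran from 0.820 to 1.23 for Serpina1a and from 0.781 to 1.21 for Serpina1b.

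Serpina1c and Serpina1d share the codon TAT at the cleaved position, but their levels did not follow each other. Serpina1c was at 2945, 2626, 3254, 2645 and 2849 CPM in NCACS livers and at 2151, 2078, 2894, 2972 and 2527 CPM in CACS livers. In 3 of 5 CACS livers it lay below every NCACS liver. The log2 fold change of -0.18 did not pass the threshold (SE 0.144, adjusted p = 0.497 in edgeR's test, 95% interval from -0.50 to 0.13), nor did the exact permutation test of mean log2 CPM give a small p-value (two-sided p = 0.159, where 5 livers against 5 allow no p below 0.00794).

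Serpina1d was at 2517, 902, 1269, 2246 and 2400 CPM in NCACS livers and at 2269, 2039, 2105, 2274 and 2757 CPM in CACS livers. The livers of mice 12 and 13 were below the other 8, which lay between 2039 and 2757 CPM. Its log2 fold change was 0.29 (SE 0.261, adjusted p = 0.551 in edgeR's test, 95% interval from -0.28 to 0.86). Without mice 12 and 13, a choice made after the values had been seen, it was -0.061 (adjusted p = 0.840 in the same test).

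Serpina1e, the copy with the codon TTG, varied most. Its CPM was 7411, 245, 316, 2017 and 5452 in NCACS livers and 5133, 4610, 3445, 6328 and 4671 in CACS livers. NCACS livers thus included the highest and the 3 lowest values, and the range over 10 livers was 30.2-fold, while CACS livers stayed within 1.84-fold of each other. In raw counts the livers of mice 12 and 13 had 9847 and 9777 Serpina1e reads, compared with 249782 in mouse 11, so that counting error is small beside this spread.

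The SD of log2 CPM of Serpina1e was 2.28 in NCACS livers, above that of 99.8% of the genes tested, and 0.317 in CACS livers, above that of 63.1%. The median SD over all genes tested was 0.258 in NCACS livers and 0.243 in CACS livers. Between the groups the log2 fold change was 0.65 with a wide 95% interval from -1.0 to 2.30 (SE 0.755, adjusted p = 0.668 in edgeR's test). By limma-voom it was 1.70 (adjusted p = 0.307), which like the difference of mean log2 CPM of 1.71 averages livers on the log scale. The exact permutation test of that difference gave p = 0.167 (two-sided), with all 5 CACS livers above the NCACS median. Without mice 12 and 13 the log2 fold change was -0.037 (adjusted p = 0.967 in edgeR's test). With each mouse left out in turn it ranged from 0.35 (without mouse 12) to 1.27 (without mouse 11), so that neither a rise nor a fall was shown.

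Mice 12 and 13 had weight changes of -8 and -11%, between those of the other NCACS mice. Serpina1d shared the low of Serpina1e in these livers, at 902 and 1269 CPM. Serpina1a, Serpina1b and Serpina1c were not low to this extent. Serpina1b was at 4372 CPM in mouse 12, the lowest of the 10 livers though close to the next lowest (4602 CPM), and at 5180 CPM in mouse 13. Serpina1a was at 2697 and 3106 CPM there and Serpina1c at 2626 and 3254 CPM, the latter the highest of the 10 livers. In mice 12 and 13 the levels of Serpina1a and Serpina1c thus lay within the range of the other livers or above it.

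The share of each copy in the Serpina1 counts shows the same. Serpina1e made up 2.26% of the cluster in mouse 12 (95% Clopper-Pearson interval from 2.22 to 2.31%) and 2.41% in mouse 13 (2.36 to 2.46%), compared with 33.2% in mouse 11, 13.4% in mouse 14 and 28.3% in mouse 15. In CACS livers its share lay between 20.8 and 31.1%. These intervals cover counting error only, which is far smaller than the difference between livers.

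On average Serpina1e took 15.9 ± 14.4% of the cluster in NCACS livers and 27.1 ± 4.39% in CACS livers (SD, n = 5 each), a difference of 11.2 percentage points with an SE of 6.73. Serpina1b took 34.9 ± 5.88% and 29.5 ± 2.02%, and Serpina1d 11.3 ± 2.55% and 12.9 ± 1.15% (SD, n = 5 each). Shares within a cluster add up to the whole, so the lower shares of Serpina1a, Serpina1b and Serpina1c in CACS livers are bound to the higher share of Serpina1e.

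**Figure D3:**
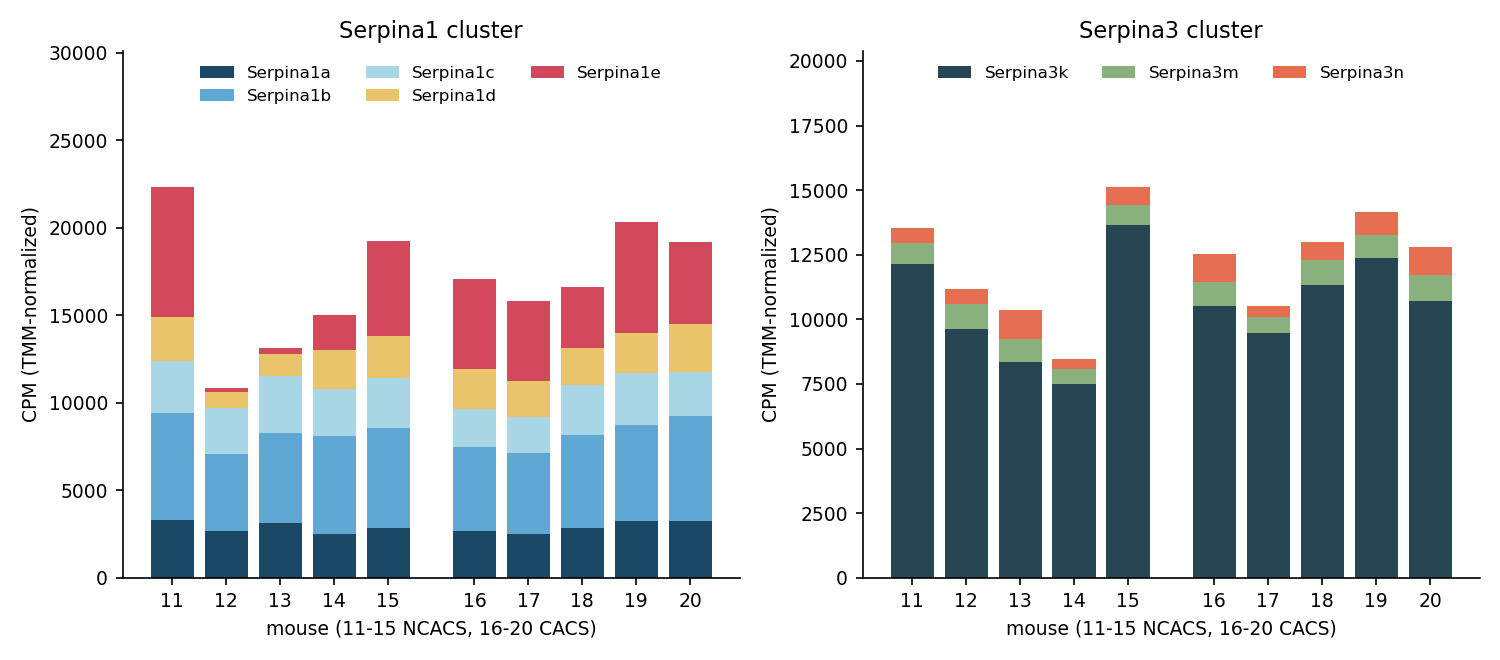
Stacked CPM of the 5 Serpina1 genes (left) and the 3 Serpina3 genes (right) in each of the 10 livers, with NCACS mice 11 to 15 before CACS mice 16 to 20. Serpina1e nearly vanishes from the stack in mice 12 and 13, at 245 and 316 CPM, and Serpina3k fills most of the Serpina3 stack in every liver.

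The summed Serpina1 genes were at 22313, 10842, 13125, 15042 and 19256 CPM in NCACS livers and at 17055, 15844, 16595, 20334 and 19192 CPM in CACS livers. They took between 1.14 and 2.14% of all counts of a liver. The mean log2 CPM of the sum was 0.19 higher in CACS livers (SE 0.199), less than the SD within groups of 0.314. Without Serpina1e in the sum the difference was -0.0043. For the full sum it was -0.072 without mice 12 and 13, 0.055 without mouse 12 alone and 0.12 without mouse 13 alone. The direction thus turned with Serpina1e left out and with both mice left out. Neither removal singles out Serpina1e in those livers.

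The sequences before the start site are shown for Serpina1b, which varied 1.40-fold over the livers, and for Serpina1e, which varied 30.2-fold. Both are the 250 bases before the RefSeq start on GRCm38.p6, and capitals mark bases that differ or lack a partner in the stretch where the sequences overlap. They come from the reference genome and cannot show why a gene varied between these mice, whose own sequence was not examined.

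Serpina1b (chr12:103738190-103738439, minus strand): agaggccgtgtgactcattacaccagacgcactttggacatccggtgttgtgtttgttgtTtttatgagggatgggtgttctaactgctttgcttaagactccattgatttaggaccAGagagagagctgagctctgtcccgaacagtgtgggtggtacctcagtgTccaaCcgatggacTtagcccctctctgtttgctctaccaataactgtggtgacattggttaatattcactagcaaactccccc
Serpina1e (chr12:103956898-103957147, minus strand): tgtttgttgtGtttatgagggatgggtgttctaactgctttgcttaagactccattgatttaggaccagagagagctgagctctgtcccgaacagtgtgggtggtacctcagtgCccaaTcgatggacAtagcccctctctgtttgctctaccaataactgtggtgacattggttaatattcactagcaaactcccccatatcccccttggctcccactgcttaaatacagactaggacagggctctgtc

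The sequences overlapped over 200 columns, with the Serpina1e start annotated further downstream, and differed in 6 of them (97.0% identical). Serpina1d and Serpina1e were 95.8% identical over 189 columns. Serpina1e was thus slightly more like Serpina1b than like Serpina1d in this window. RefSeq promoters of 300 bases (250 before and 50 after the start) were matched for 6 of the 8 genes, the 5 Serpina1 genes and Serpina3n.

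Searched on both strands, none of the 6 held the STAT letters TTCNNNGAA, which 8.30% of 32851 promoters held, the stricter STAT letters TTCCNGGAA contained in them (1.15%), the C/EBP letters TTGCGCAA (0.183%) or an HNF1 motif of 13 bases (0.00913%). This says only that these exact letters were not in this window. The C/EBP letters occurred in 60 and the HNF1 letters in 3 of the 32851 promoters, so their absence from 6 carries no information. Looser forms of these sites were not searched for, so whether the promoters hold such sites was not tested.

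Serpina3k, long known as contrapsin and as a kallikrein-binding protein, was the most abundant of the 8 genes. It was at 12127, 9621, 8359.8, 7499 and 13661 CPM in NCACS livers and at 10530.3, 9477, 11341, 12360.4 and 10725 CPM in CACS livers. NCACS livers held both the highest and the lowest values. The log2 fold change was 0.086 (SE 0.189, adjusted p = 0.835 in edgeR's test, 95% interval from -0.33 to 0.50).

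Serpina3m, a close relative of Serpina3k, was at 831, 978, 894, 588 and 781 CPM in NCACS livers and at 934, 623, 965, 909 and 977 CPM in CACS livers. Mice 14 and 17, 1 of each group, were the lowest. Its log2 fold change was 0.11 (SE 0.166, adjusted p = 0.742 in edgeR's test, 95% interval from -0.25 to 0.48).

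Serpina3n, an acute-phase serpin that inhibits granzyme B and cathepsin G, varied 3.01-fold over the livers. It was at 566, 568, 1123, 373 and 663 CPM in NCACS livers and at 1052, 412, 693, 891 and 1107 CPM in CACS livers. Mouse 13, an NCACS mouse, had the highest value and 4 of 5 CACS livers were above the NCACS median.

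The log2 fold change of Serpina3n was 0.34 (SE 0.310, adjusted p = 0.568 in edgeR's test, 95% interval from -0.34 to 1.01), and the exact permutation test gave p = 0.365 (two-sided). Without mouse 13 the log2 fold change was 0.62 (adjusted p = 0.238 in edgeR's test), the highest with 1 mouse left out, and without mouse 14 it was 0.19, the lowest. The SD of its log2 CPM was 0.573 in NCACS and 0.581 in CACS livers, above that of 86.6 and 87.1% of the genes tested.

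The Serpina3 genes together were at 13524, 11168, 10376, 8460 and 15105 CPM in NCACS livers and at 12516, 10513, 12999, 14161 and 12808 CPM in CACS livers. Serpina3k made up between 80.6 and 90.4% of the sum. The mean log2 CPM of the sum was 0.13 higher in CACS livers (SE 0.163), less than the SD within groups of 0.257, and 0.22 higher when Serpina3k was left out of the sum.

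**Figure D4:**
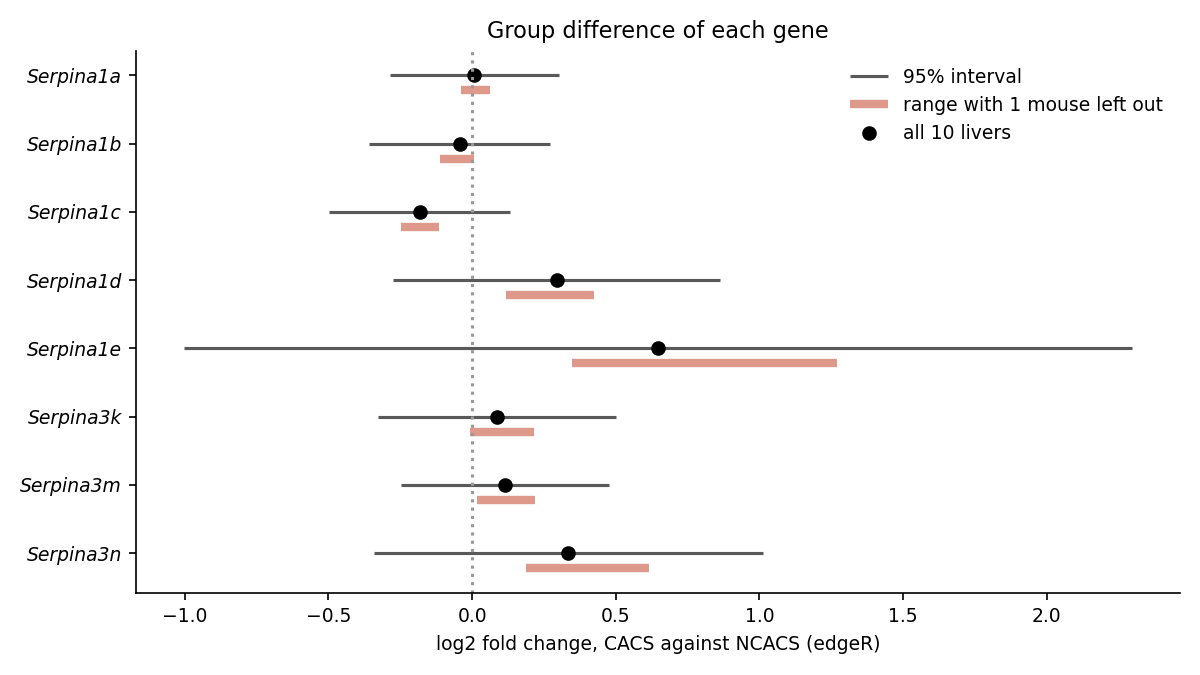
Log2 fold change of each gene, CACS against NCACS livers, from edgeR, with black dots for all 10 livers, grey lines for 95% intervals and red bars for the range with 1 mouse left out. Every interval includes 0, and that of Serpina1e is the widest, from -1.0 to 2.30.

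To compare the genes with each other, CPM was divided by exon length in kilobases. The order of mean levels per length over the 10 livers was Serpina3k (5139 ± 920 CPM per kb, SD, n = 10), Serpina1e (2451 ± 1503), Serpina1b (2206 ± 243), Serpina1c (1979 ± 271), Serpina1a (1582 ± 167), Serpina1d (1490 ± 407), Serpina3m (493 ± 83.0) and Serpina3n (361 ± 136). Serpina3k was above Serpina1e and Serpina1d above Serpina3m in 10 of 10 livers with either length of the transcripts. Serpina1c was above Serpina1a in 10 livers by exon length and in 7 by the longest transcript. Serpina3m was above Serpina3n in 9 livers by either length. The remaining neighbours were less clearly separated by exon length. Serpina1e was above Serpina1b in 6 livers (4 of them CACS), Serpina1b above Serpina1c in 8 and Serpina1a above Serpina1d in 4. With the longest transcript as the length, Serpina1b stood at 3023 CPM per kb, above Serpina1e on average, and was above Serpina1c in 10 livers, and Serpina1a stood at 1833 CPM per kb and was above Serpina1d in 9. Levels of the Serpina1 copies carry the uncertainty of shared stretches described above.

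Likeness between genes was measured as the root mean square difference between log2 CPM profiles standardised to mean 0 and SD 1 over the 10 livers, which all share library and scaling, and is a description only. Among the 28 pairs of the 8 genes, Serpina1d and Serpina1e were nearest (0.34), followed by Serpina3m and Serpina3n (0.63). Among the 9227 other tested genes averaging 5 CPM or more, the nearest to Serpina1e were Marc2 (0.43), on chromosome 1, and Chfr (0.48), on chromosome 5, and those to Serpina1d were Marc2 (0.41) and Gid8 (0.44). The likeness is in shape and not in size. Chfr ranged from 15.1 to 18.3 CPM and Marc2 from 315 to 397 CPM, the lowest Marc2 values being those of mice 12 and 13.

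The fourth nearest to Serpina1e, named after its values had been seen, was B430119L08Rik (0.52), which lies on the plus strand within the Serpina1 cluster (chr12:103895897-103898784) and overlaps 31.5% of the Serpina1c exons. It was at 4.46 and 4.20 CPM in mice 12 and 13 and between 8.45 and 29.3 CPM in the other 8 livers. The strand setting of the counting is not given in the sources used here, so its reads and those of Serpina1c cannot be told apart. Serpina1c was not low in the livers of mice 12 and 13. B430119L08Rik also shares 100-base stretches with Serpina1a and with Serpina1d, which was low there at 902 and 1269 CPM. Whether its counts came from reads of these copies was not tested.

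Serpina3n was nearest to Itih3 (0.24), which encodes a heavy chain of the inter-alpha-trypsin inhibitor, and to Cpn2 (0.28), which encodes a carboxypeptidase N subunit. Itih3 was at 1942, 2086, 3305, 1133 and 2404 CPM in NCACS livers and at 3357, 1625, 2580, 3025 and 3311 CPM in CACS livers. As for Serpina3n, mice 14 and 17 were lowest and mice 13, 16 and 20 highest. Stat3, the transcription factor of the interleukin-6 response, was the sixth nearest (0.34) and complement C3 the seventh (0.35). Both were picked out after their values had been seen, and the genes ranked between Cpn2 and Stat3 are not named. Hp (0.51), Saa1 (0.86) and Saa2 (0.90), also named after their values had been seen, ranked 57, 805 and 1006 among the 9227 genes. They were less alike. Standardised Saa1 and Saa2 lay above Serpina3n in every NCACS liver, by less in mice 13 and 14, and below it in every CACS liver. Hp lay above Serpina3n in NCACS mice 11, 12, 13 and 15 and slightly in CACS mouse 17, and below it in the other livers.

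**Figure D5:**
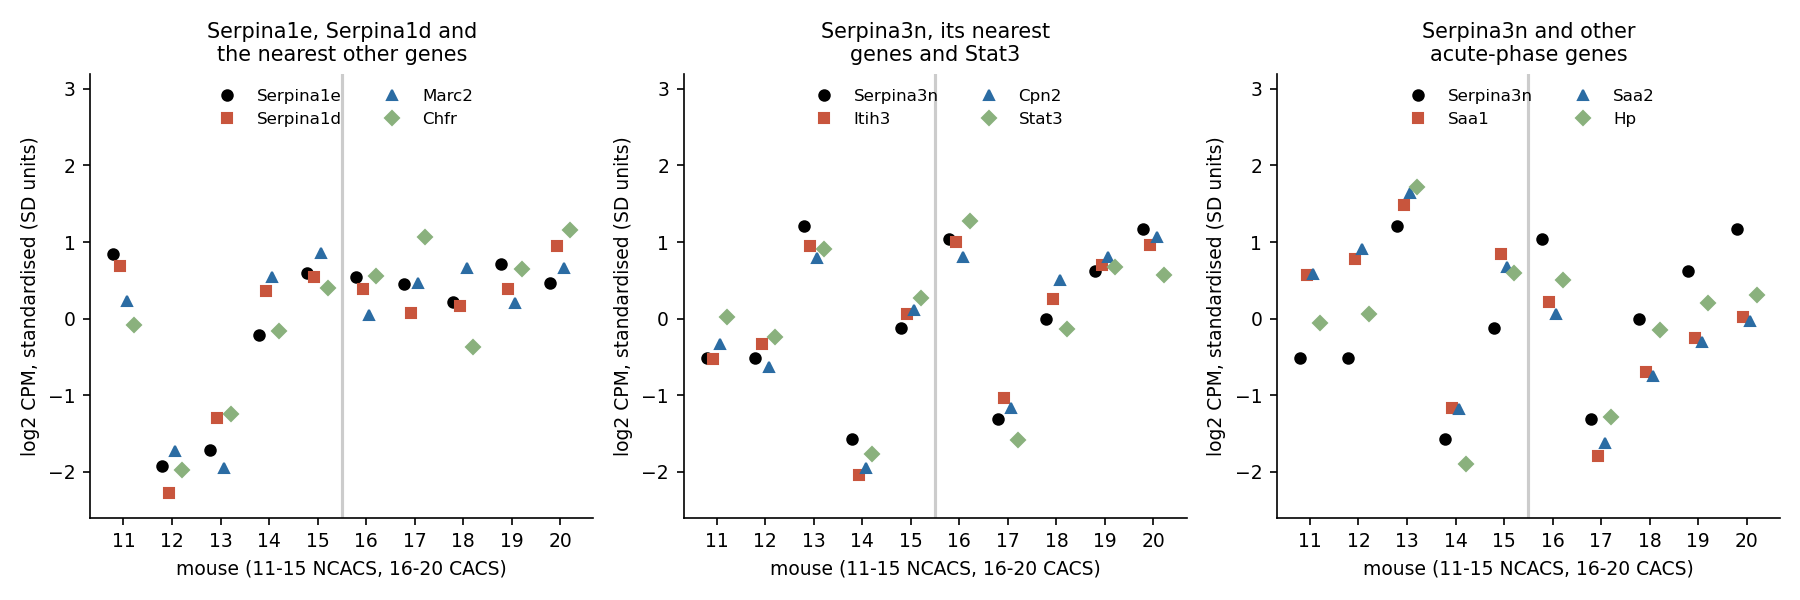
Log2 CPM of each gene in each liver, standardised to mean 0 and SD 1 over the 10 livers, with NCACS mice left and CACS mice right of the grey line. Serpina1e, Serpina1d, Marc2 and Chfr are lowest in mice 12 and 13. Serpina3n follows Itih3, Cpn2 and Stat3 with lows in mice 14 and 17. Saa1 and Saa2 sit above Serpina3n in every NCACS mouse and below it in every CACS mouse.

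Serpina3m was nearest to Sbno2 (0.29), a gene of the interleukin-10 and STAT3 response, and to 4933439C10Rik (0.38). Serpina3k was nearest to Pabpc1 (0.43) and Arhgap35 (0.44). For the steadier copies the distances were similar. Serpina1a was nearest to Commd9 (0.23) and Clptm1 (0.39), Serpina1b to Ndufa12 (0.48), a subunit of respiratory complex I, and Foxq1 (0.55), and Serpina1c to the mitochondrial ribosomal gene Mrps7 (0.32) and Timmdc1 (0.33).

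Of 17 further clade A serpin genes, 13 were tested, of which 1 rose (1.89% of all genes tested did) and 12 did not pass the threshold (median log2 fold change 0.12). The gene that rose was Agt, which encodes angiotensinogen, a serpin without inhibitor function. It was at 828, 830, 859, 651 and 584 CPM in NCACS livers and at 1164, 1012, 1217, 1236 and 1253 CPM in CACS livers, without overlap, and its log2 fold change was 0.65 (SE 0.138, adjusted p = 0.0311 in edgeR's test). Serpina6, the corticosteroid-binding globulin, had means of 392 ± 127 CPM (NCACS) and 290 ± 71.8 CPM (CACS, SD, n = 5 each, adjusted p = 0.343 in edgeR's test).

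Serpins of other clades in plasma gave no call (0 of 7 tested, median log2 fold change -0.14). Serpinc1, or antithrombin, was at 2221 ± 103 and 2267 ± 173 CPM, and the C1 inhibitor gene Serping1 at 1445 ± 357 and 1313 ± 264 CPM, in NCACS and CACS livers (SD, n = 5 each).

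Target proteases and clearance receptors were mostly too low to test in liver (5 of 12 tested, median log2 fold change -0.30). Elane, which encodes neutrophil elastase and was picked out after its values had been seen, reached at most 0.372 CPM. Cela1, a pancreatic-type elastase, fell from 47.7 ± 6.05 to 16.4 ± 6.16 CPM (SD, n = 5), a log2 fold change of -1.54 (SE 0.234, adjusted p = 0.0110 in edgeR's test), and was the 1 gene of 5 tested to pass, against 3.8% of all genes. Lrp1, the receptor that clears serpin-protease complexes, was at 1065 ± 215 and 866 ± 160 CPM (SD, n = 5, adjusted p = 0.344 in edgeR's test).

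Among 24 acute-phase genes, all tested, 0 passed in either direction, and 6 had log2 fold changes above 0 and 18 below (median -0.18). Not all changes were small. Saa1 and Saa2, named after their values had been seen, had log2 fold changes of -3.47 and -4.85. Neither passed the threshold (adjusted p = 0.124 and 0.0843 in edgeR's test). The most abundant were C3, at means of 13577 ± 5038 CPM (NCACS) and 14563 ± 3360 CPM (CACS), and the haem-binding hemopexin gene Hpx, at 12212 ± 9689 and 8807 ± 3649 CPM (SD, n = 5 each). As with Serpina3n, the highest level of both was in NCACS mouse 13, at 21917 CPM for C3 and 28616 CPM for Hpx, and the lowest in mouse 14.

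Of 13 genes of interleukin-6 and related cytokine signalling, 1 rose, 2 fell and 10 did not pass, where 3.8% of all genes tested passed. The interleukin-1 receptor gene Il1r1 rose (log2 fold change 1.22, SE 0.261, adjusted p = 0.0318), and the receptor gene Lifr (-0.55, SE 0.130, adjusted p = 0.0414) and the kinase gene Tyk2 (-0.42, SE 0.0900, adjusted p = 0.0314) fell, all in edgeR's test. The list median was 0.11.

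Of 10 genes of growth hormone and STAT5 signalling, which helps to set the output of liver serpins, 3 rose and 1 fell, against 1.89 and 1.92% of all genes tested (median -0.051). The growth hormone receptor gene Ghr fell from 582 ± 102 to 377 ± 46.8 CPM, whereas Igf1 rose from 492 ± 60.1 to 746 ± 133 CPM and the feedback inhibitor Socs2 from 8.99 ± 3.64 to 62.2 ± 17.6 CPM (SD, n = 5 each), with adjusted p = 0.0388, 0.0437 and 0.00203 in edgeR's test. Cux2, a liver gene more active in females, passed as well (adjusted p = 0.0298 in edgeR's test), but was high only in CACS mice 16, 18 and 20, at 30.6, 17.3 and 53.4 CPM, and at most 0.817 CPM in the other 7 livers.

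Among 11 liver transcription factors, Hnf4a, the nuclear receptor that maintains hepatocyte identity, rose from 632 ± 42.5 to 891 ± 116 CPM (SD, n = 5 each, log2 fold change 0.50, adjusted p = 0.0435 in edgeR's test), and 10 did not pass (1 of 11, against 3.8% of all genes tested), among them Cebpa at 367 ± 58.6 and 327 ± 86.4 CPM (list median 0.061). Of 22 genes for export from the endoplasmic reticulum and disposal of misfolded protein, the pathway that handles misfolded alpha-1-antitrypsin, 0 passed, with 5 log2 fold changes above 0 and 17 below (median -0.19). Calr was at 892 ± 346 and 703 ± 73.4 CPM and Hspa5 at 644 ± 105 and 629 ± 117 CPM (SD, n = 5 each).

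The tissue label fitted its markers. The 7 hepatocyte markers summed to between 70683 and 117436 CPM in NCACS and between 111169 and 134927 CPM in CACS livers, with 0 of 7 past the threshold. Of 6 Kupffer cell markers, Cd5l fell (log2 fold change -0.90, adjusted p = 0.0374 in edgeR's test), all 6 had log2 fold changes below 0, and their sum was between 150 and 251 CPM in NCACS and between 87.3 and 175 CPM in CACS livers. Endothelial (0 of 5 called), stellate (0 of 5), cholangiocyte (0 of 4), lymphocyte (0 of 3 tested) and neutrophil markers (0 of 2 tested) gave no call. Both tested neutrophil markers had log2 fold changes below 0 (median -1.72) and unadjusted p under 0.05 in edgeR's test. The neutrophil list was near the floor, with sums between 1.39 and 12.3 CPM in NCACS and between 1.05 and 2.62 CPM in CACS livers. Of 5 lung markers 3 were tested and 1 passed, against 3.8% of all genes tested. The log2 fold change was above 0 for 2 of the 3 and below 0 for 1 (median 0.44). The marker that passed, Sftpa1, rose from 1.41 ± 0.106 to 3.42 ± 1.47 CPM (SD, n = 5 each, adjusted p = 0.0323 in edgeR's test). Nkx2-1, picked out after its values had been seen, was at most 0.0653 CPM. The part of these cell types in the serpin levels was not tested, and in whole liver fewer cells of a type and less RNA per cell cannot be told apart.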

How the data were processed

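RNA was measured in livers of 5 NCACS and 5 CACS mice. From stranded mRNA libraries the authors aligned 100-base single-end reads to GRCm38 (STAR 2.4.1d), obtained counts for each gene (HTSeq 0.6.1) and deposited these raw counts without normalization. The annotation release and strand setting are not given in the sources used here. The table had 43629 genes, 0 rows that name no gene and 0 unused columns. Groups, mouse numbers and weight changes came from the labels, which give no batch. A further allele that all mice of both groups carried is not reported here.

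Symbols and transcripts came from GENCODE M21 and promoters from RefSeq. Genes were filtered with filterByExpr, scaled by TMM and tested with edgeR 4.0.16 in R 4.3.3 (quasi-likelihood test, Benjamini-Hochberg adjustment, threshold 0.05), and log2 CPM used a prior count of 2. Cluster sums, shares and levels per length had no test. DESeq2 1.42.0, limma 3.58.1, other scalings and filters, and leaving out each mouse were alternatives. The scripts were tested on simulated data. No pair of livers of a group matched within sampling noise (chi-square of at least 46.1 per degree of freedom).

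The genes and lists were chosen with earlier results of these data known. Named were all 8 genes, the listed genes past the threshold or, where fewer than 2 passed, the most abundant up to 2, and the 2 genes nearest in profile to each of the 8. With at least 31459179 counts per liver, counting error was small for these genes.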

Additional observations from a re-analysis of the deposited data

Results flagged for a closer look

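In 36 combinations of a measure (CPM or share of the cluster) and a group of 5 livers, 2 livers lay further from the rest of their group than Dixon's 95% critical value for 5 samples allows, and chance gives about 1 in 20. Serpina3m was at 623 CPM in CACS mouse 17, against 909 CPM in the nearest CACS liver (ratio of gap to range 0.809). Serpina3n made up 10.8% of the Serpina3 counts in NCACS mouse 13, against 5.09% in the nearest NCACS liver (ratio 0.864). The low Serpina1e and Serpina1d levels of NCACS mice 12 and 13 were not picked out by this measure, which looks for 1 liver apart from its group.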

How the results depend on the processing

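None of the 8 genes passed the threshold under any of the 19 alternatives run for each, whose lowest adjusted p-values were 0.238 for Serpina3n (edgeR without NCACS mouse 13) and 0.307 for Serpina1e (limma-voom, log2 fold change 1.70 against 0.65). Some directions turned, including those of Serpina1d and Serpina1e, whose log2 fold changes of 0.29 and 0.65 with all livers were not near 0. The log2 fold change of Serpina1a was -0.0011 with upper-quartile factors and ranged from -0.038 to 0.061 with 1 mouse left out, that of Serpina1b from -0.11 to 0.0071 and that of Serpina3k from -0.0067 to 0.22. Without NCACS mice 12 and 13 (chosen after seeing the data) it was -0.061 for Serpina1d, -0.037 for Serpina1e and -0.028 for Serpina3k. With 1 mouse left out, the difference of the Serpina1 sum ranged from 0.055 to 0.32 and that of the Serpina3 sum from 0.016 to 0.22.

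The count of genes past the threshold was 538 (267 higher and 271 lower), 1376 with DESeq2 and 165 without mice 12 and 13. With 1 mouse left out it ranged from 178 (without NCACS mouse 11) to 519 (without CACS mouse 17), and was 281, 301, 208 and 285 without NCACS mice 12, 13, 14 and 15 and 192, 206 and 228 without CACS mice 16, 19 and 20. Fewer mice also mean less power. No paired analysis was possible because no mouse number occurs in both groups. The 95% interval of Serpina1e spans folds from 0.499 to 4.92, and the SE of its log2 fold change was 0.755, against 0.357 without mice 12 and 13. The longest-transcript length moved the mean level per length of Serpina1a to 1833 and of Serpina1b to 3023 CPM per kb.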
